A study of Mus musculus with 6 samples.

Results

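Expression of the insulin-like growth factor (IGF) axis was examined in mammary tumors of BK5.ATF3 mice and in the normal gland next to each tumor. The genes were taken by symbol from the list of IGF ligands (*Igf1*, *Igf2*), receptors (*Igf1r*, *Igf2r*) and binding proteins (*Igfbp2* to *Igfbp7*). All 10 were present among the 15280 genes of the expression table. BK5.ATF3 mice carry an ATF3 transgene under a keratin 5 promoter, which is active in basal epithelial cells. The 6 RNA-Seq libraries came from 3 female transgenic mice that had raised a litter, with 1 tumor (T11035, T11640, T9232) and 1 adjacent gland (M11035, M11640, M9232) from each mouse. Where 3 values are given for a tissue, they follow this order, so that the first gland and the first tumor are from 1 mouse. Most mice of this line develop tumors at an age of 6 to 12 months, and these were taken once they measured 1.5 cm. Both tissues carried the transgene, so tumor was compared with gland and not transgenic with wild-type tissue. Expression is given as CPM (fragment counts scaled to library size), which is not corrected for gene length.

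The IGF ligands are secreted peptides that activate the receptor tyrosine kinase encoded by *Igf1r*, whereas the *Igf2r* product, which is also the mannose 6-phosphate receptor, carries IGF2 to lysosomes. The binding proteins hold the ligands outside the cell and can limit or prolong their action, and proteases release the ligands again. In the mammary gland, IGF1 made in the stroma under growth hormone is known for driving duct growth, and *Igfbp5* is known for its expression in the involuting gland.

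The main difference was in *Igf2*, which was 383 times as abundant in the tumors as in the glands, from 7.20 ± 1.09 CPM (SD, n = 3) to 2760 ± 1208 CPM. *Igfbp2*, *Igfbp3*, *Igfbp4* and *Igfbp7* also rose, and *Igfbp5*, the most abundant binding protein transcript of the gland, fell. *Igf1*, *Igf1r*, *Igf2r* and *Igfbp6* were not called. Thus 5 of the 10 genes were called higher in tumors and 1 lower, where 14.5% of all genes tested were called higher and 13.7% lower (28.2% in either direction). By limma's test across the 15280 genes, a call needed an adjusted p no higher than 0.05 together with a 2-fold difference or more. In 7 of the 10 genes, the 3 tumors lay above the 3 glands with no overlap, and in the others the groups overlapped. Over all genes, 54.0% had the groups apart in 1 direction or the other, a share that is not split by direction. The median log2 fold change was 1.10 over the 10 genes and -0.0028 over all genes.

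**Figure D1:**
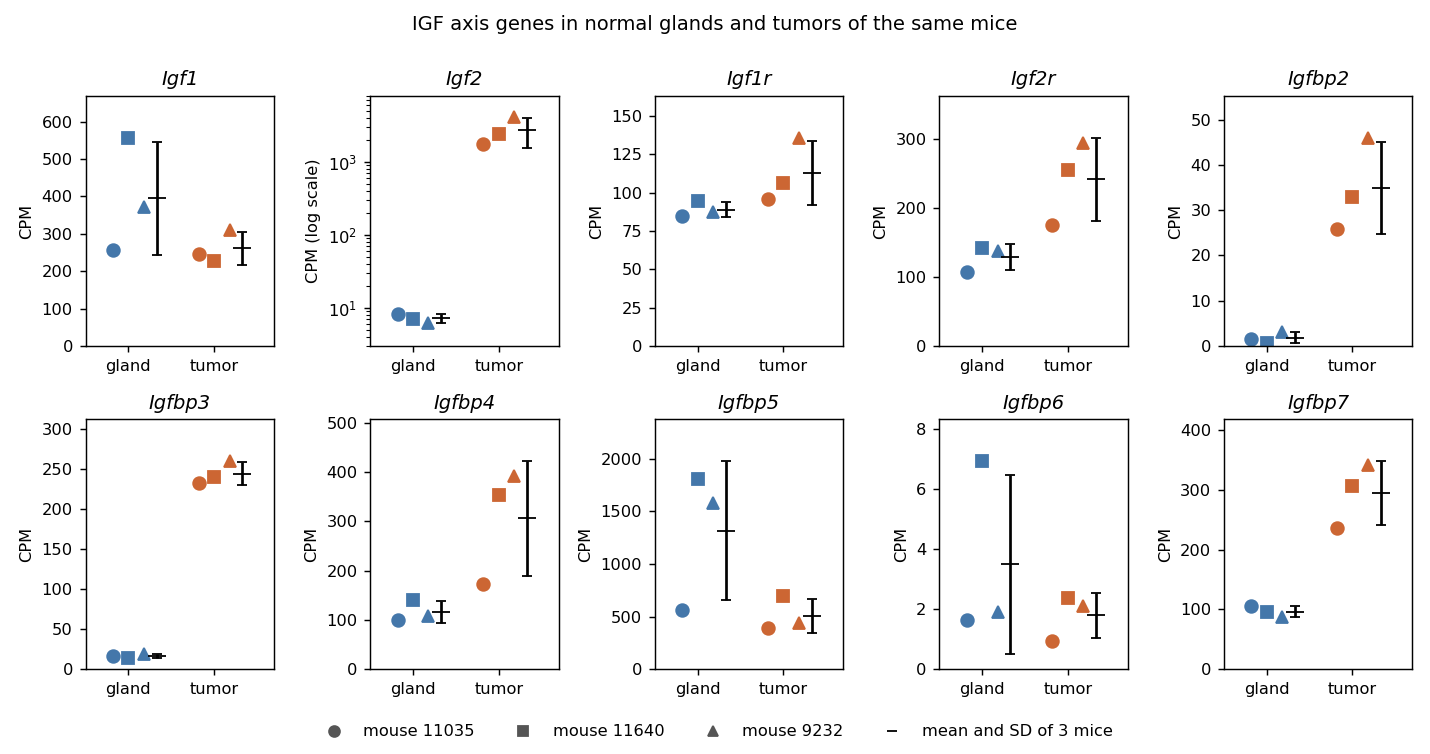
CPM (vertical axis, logarithmic for *Igf2*) of the 10 IGF axis genes in 3 normal glands (blue) and 3 tumors (orange), with a marker shape for each mouse and the mean and SD beside each group. *Igf2* lies between 6.16 and 8.34 CPM in the glands and between 1739 and 4094 CPM in the tumors, and *Igf1*, *Igfbp5* and *Igfbp6* overlap between the tissues.

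The libraries held between 4750989 and 7806908 fragments on genes, and 3 fragments, taken as the floor of detection, equal 0.393 to 0.610 CPM. Such floors cover counting error only. The tissues differed in the marker genes of several cell types, as follows. For these counts, the shares over all genes were 14.5% called higher and 13.7% called lower. All 12 adipocyte markers were called lower in tumors (summed level 3671 to 7091 CPM in glands and 190 to 245 CPM in tumors), and *Lep* was at or under the floor in each tumor. All 8 lymphocyte markers were lower as well (276 to 689 CPM against 26.6 to 45.1 CPM), with *Cd79a* at or under the floor in tumors. All 8 basal epithelial markers were higher (257 to 404 CPM against 2873 to 3279 CPM), as were all 10 squamous markers (9.75 to 10.5 CPM against 3333 to 5702 CPM), of which *Ivl*, *Lor*, *Sprr1a* and *Sprr1b* were at or under the floor in the glands. Of 11 fibroblast markers measured, 4 were higher, the collagens *Col1a1*, *Col1a2* and *Col3a1* and the matrix gene *Fbln1*, and *Dpt* was lower (summed level 1104 to 4573 CPM against 8612 to 9315 CPM). The 3 collagens made up most of the tumor sum (1564, 2947 and 2919 CPM in T11035). The median log2 fold change of the fibroblast list was 0.16, and *Pdgfra*, *Dcn*, *Fap* and *Dpp4* were among those not called. Of 10 luminal markers, 4 were higher and 5 lower, with overlapping sums (540 to 1025 CPM against 769 to 926 CPM). Of 9 macrophage markers 1 was lower (1067 to 3850 CPM against 1134 to 2365 CPM), and of 10 pericyte and smooth muscle markers 1 was higher and 2 lower (531 to 761 CPM against 362 to 504 CPM). In bulk tissue, fewer cells of a type and less RNA per cell cannot be told apart. The part of cell composition in the results was not tested.

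The promoters of the genes that rose are shown because ATF3, the transgene's product, is a bZIP factor that binds the CRE (TGACGTCA) and, with JUN proteins, the AP-1 element (TGANTCA). The 80 bases before a transcription start that do not overlap an annotated exon are given 5′ to 3′ from RefSeq (GRCm38.p6 table), each found once and unchanged in the mm9 genome at the position stated. For *Igf2*, which has 4 starts in that table, the most downstream is shown.
*Igf2* (chr7:149843402-149843481, minus strand): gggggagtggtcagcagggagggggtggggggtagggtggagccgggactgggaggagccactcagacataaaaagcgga
*Igfbp2* (chr1:72870974-72871053, plus strand): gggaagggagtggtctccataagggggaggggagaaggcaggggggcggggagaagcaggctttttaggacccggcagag
*Igfbp3* (chr11:7113927-7114006, minus strand): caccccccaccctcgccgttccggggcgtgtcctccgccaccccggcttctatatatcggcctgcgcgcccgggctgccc
*Igfbp4* (chr11:98902478-98902557, plus strand): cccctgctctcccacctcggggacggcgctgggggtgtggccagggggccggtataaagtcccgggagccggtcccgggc
*Igfbp7* (chr5:77837071-77837150, minus strand): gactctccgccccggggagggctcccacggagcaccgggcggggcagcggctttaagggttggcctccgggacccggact
All letters are in lower case because neither motif, searched on both strands, occurs in them. Over all 14 windows of 300 bases around the starts of the 10 genes, which include 4 starts of *Igf2*, the CRE was found in 0 and the AP-1 letters in 2. These were the window of *Igf1* (TGAATCA, beginning 37 bases before the start) and that of a second start of *Igfbp2* (TGAGTCA, 39 bases before the start). Of the 80 bases before these 2 starts, 80 and 65 overlapped an annotated exon, unlike the stretches printed above. Of all 32851 such windows, 1.79% held the CRE letters and 7.81% the AP-1 letters. No letters in a window show or exclude binding by a factor.

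*Igf2* encodes the fetal growth ligand of the axis and is expressed from the paternal allele. It lies on mm9 chromosome 7 (149836673 to 149852721). The glands had 8.34, 7.10 and 6.16 CPM, and the tumors of the same mice had 1739, 2447 and 4094 CPM. These values rest on 41 to 45 fragments in each gland and on 9345 to 27321 in each tumor. The groups were far apart, the glands differed by 1.35-fold between the highest and lowest, and the tumors by 2.35-fold, with tumor T9232 highest. *Igf2* changed by 8.41 on the log2 scale (95% interval 7.75 to 9.06, adjusted p = 7.18e-07, limma), the 11th largest rise of all genes. In the tumors *Igf2* ranked 18th, 14th and 8th among all genes by CPM in T11035, T11640 and T9232. It took between 0.183% and 0.393% of all gene fragments there. *Igf2* has 98 bp of exon in common with the antisense transcript *Igf2as*. *Igf2as* had 0 fragments in every gland and 4.84, 5.64 and 9.89 CPM in the tumors, and was at least 13.4-fold higher against the floor. The strand setting of the counting is not given in the sources used here, so fragments in the shared exon cannot be told apart between the 2 genes.

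*Igf1*, the ligand that growth hormone induces, lies on chromosome 10 (87321010 to 87399792). Its level was 257, 557 and 372 CPM in the glands and 247, 226 and 311 CPM in their tumors. The groups overlapped, since gland M11035 was below tumor T9232, and each tumor was below the gland of its own mouse. The log2 fold change was -0.54 (95% interval -1.14 to 0.07, adjusted p = 0.140, limma), so an effect up to a little over 2-fold lower remained within the interval. Gland M11640 set much of this value, which was -0.25 without it (adjusted p = 0.396, limma), and without gland M11035 the value was -0.81 (adjusted p = 0.0216, limma). All 12 adipocyte markers and all 8 lymphocyte markers, given above, fell in the same tumors. In the glands, the summed fibroblast markers (1104, 4573 and 2032 CPM) had the order of *Igf1*. The lymphocyte sums (689, 276 and 544 CPM) had the reverse order, and the adipocyte sums (5521, 7091 and 3671 CPM) were highest in M11640. In the tumors, the fibroblast sums (8612, 9315 and 8961 CPM) did not have the order of *Igf1*. The part of cell composition in the *Igf1* result was not tested.

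The balance of the ligand transcripts was therefore different in the tissues. *Igf2* made up 1.26% to 3.15% of the summed CPM of *Igf1* and *Igf2* in the glands and 87.6% to 92.9% in the tumors. Their sum was 265 to 564 CPM in the glands and 1986 to 4405 CPM in the tumors. Per kilobase of exon, *Igf1* was above *Igf2* in every gland (25.9 to 56.1 against 1.12 to 1.52 CPM per kb). In every tumor the order was the opposite (22.8 to 31.4 against 317 to 745 CPM per kb).

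**Figure D2:**
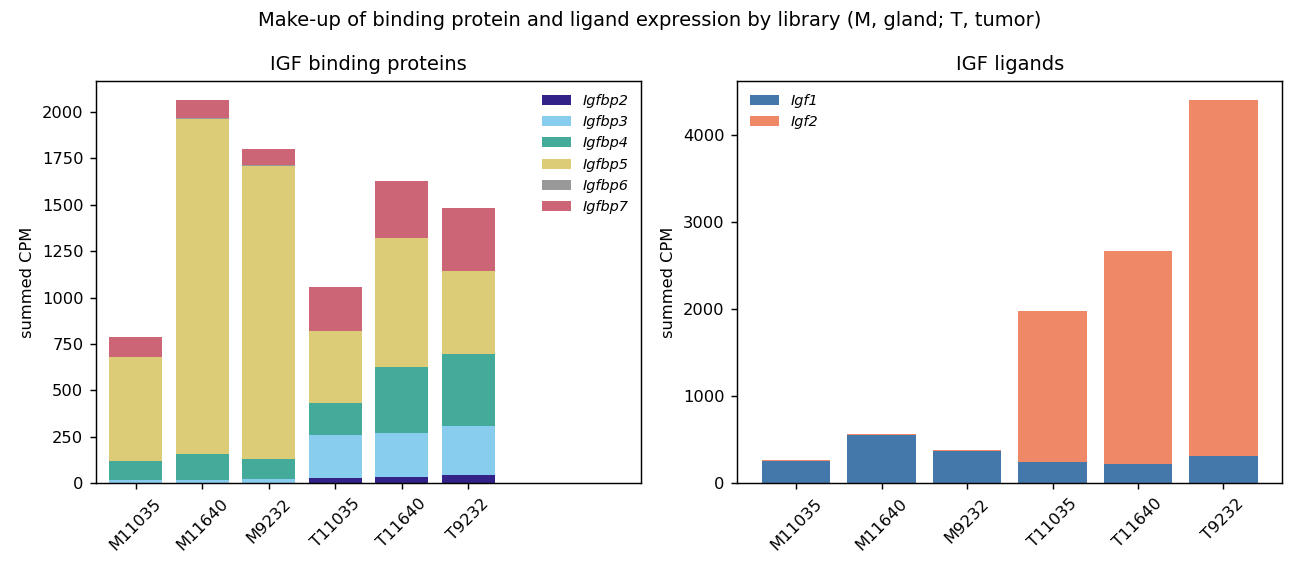
Summed CPM (vertical axis) of the 6 IGF binding protein genes and of the 2 ligand genes in each gland (M) and tumor (T) library, stacked by gene. *Igfbp5* takes 71.4% to 87.8% of the binding protein bar in glands and 29.9% to 42.6% in tumors, and *Igf2* takes most of the ligand bar in tumors only.

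Neither receptor was called. *Igf1r*, the signaling receptor of both ligands, lies on chromosome 7 as well (75097713 to 75371484). It had 84.98, 94.5 and 87.7 CPM in the glands and 95.6, 107 and 136 CPM in the tumors. The 3 tumors were above the 3 glands by a small margin, but the gene was not called (log2 fold change 0.32, 95% interval -0.05 to 0.70, adjusted p = 0.148, limma). The whole interval lay within a 2-fold difference.

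*Igf2r*, which clears IGF2 and is expressed in mice mostly from the maternal allele, lies on chromosome 17 (12875272 to 12962530). Its level was 107, 142 and 138 CPM in the glands and 176, 256 and 294 CPM in the tumors, with no overlap. It was 1.88-fold higher on the means and passed the FDR but not the fold threshold (log2 fold change 0.88, 95% interval 0.40 to 1.37, adjusted p = 0.0102, limma). It was called only when tumor T11035 was left out (log2 fold change 1.10, adjusted p = 0.00381, limma).

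The binding proteins were reordered. Their summed level was 787, 2063 and 1799 CPM in the glands and 1057, 1628 and 1485 CPM in the tumors, and the tissues overlapped. What differed was the make-up. *Igfbp3* took 0.681% to 2.17% of this sum in the glands and 14.7% to 22.0% in the tumors, and *Igfbp7* took 4.65% to 13.4% and 18.9% to 23.0%. These are shares of CPM and not of molecules, since the transcripts differ in length.

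*Igfbp3*, the main carrier of IGFs in blood, lies on chromosome 11 (7106089 to 7113926), 3.54 kb from *Igfbp1*. It had 17.1, 14.0 and 18.5 CPM in the glands and 232, 240 and 260 CPM in the tumors. It rose with tumors 1.12-fold apart, the smallest such spread of the 10 genes, and a log2 fold change of 3.85 (95% interval 3.49 to 4.21, adjusted p = 1.55e-06, limma).

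*Igfbp2*, which binds IGF2 with high affinity and carries an integrin-binding motif, lies on chromosome 1 (72871077 to 72899048). It was scarce in the glands, with 1.63, 0.661 and 3.15 CPM, and reached 25.9, 32.9 and 46.0 CPM in the tumors. The gland values rest on 4 to 23 fragments, and tumors lay far above them (log2 fold change 4.05, 95% interval 3.11 to 4.99, adjusted p = 1.20e-04, limma).

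*Igfbp4*, a binding protein that mostly inhibits IGF action until PAPP-A cleaves it, lies on chromosome 11 (98902558 to 98913969). Its level was 99.6, 141 and 108 CPM in the glands and 173, 353 and 392 CPM in the tumors. Each tumor was above every gland, but T11035 was less than 2-fold above its own gland. The log2 fold change was 1.32 (95% interval 0.65 to 2.0, adjusted p = 0.00759, limma).

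*Igfbp7* encodes a secreted protein of the family that binds IGFs only weakly and is known from blood vessels. It lies on chromosome 5 (77778265 to 77837070) and had 105, 96.0 and 87.4 CPM in the glands and 237, 307 and 341 CPM in the tumors. The groups did not overlap (log2 fold change 1.6, 95% interval 1.22 to 1.99, adjusted p = 1.43e-04, limma). Of the 10 endothelial markers in the table, *Kdr* and *Tek* were called lower and the others were not called (summed level 375 to 511 CPM in glands and 233 to 305 CPM in tumors). Of the 10 pericyte and smooth muscle markers, given above, 1 was higher and 2 lower. The part of vessel content in the *Igfbp7* result was not tested. Exons of *Igfbp7* share 85 bp with *Polr2b*.

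*Igfbp5* was the member that fell. It lies tail to tail with *Igfbp2* on chromosome 1 (72904506 to 72921458), and 5.46 kb separate the pair, which moved in opposite directions. The glands had 562, 1804 and 1580 CPM and the tumors 387, 693 and 443 CPM. Every tumor was below the gland of its own mouse, but the groups overlapped, since gland M11035 was below tumor T11640. The log2 fold change was -1.25 (95% interval -2.20 to -0.29, adjusted p = 0.0415, limma). The call was lost without any 1 of the libraries M11640, M9232, T11035, T11640 and T9232 (log2 fold change -0.94 to -1.50, adjusted p = 0.0510 to 0.133, limma). It was kept with the mouse as a block (adjusted p = 0.00588, limma). Gland M11035, the lowest for *Igfbp5*, was also the lowest gland for the summed fibroblast markers (1104 CPM). The same gland was lowest for the summed basal, luminal, macrophage, and pericyte and smooth muscle markers, and highest for the lymphocyte markers. The part of these differences in the result was not tested.

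*Igfbp6*, the binding protein with a marked preference for IGF2, lies on chromosome 15 (101974793 to 101979942) and was the scarcest member in the tumors. It had 1.63, 6.94 and 1.92 CPM in the glands and 0.930, 2.36 and 2.10 CPM in the tumors, from 5 to 42 fragments per library. The groups overlapped and the gene was not called (log2 fold change -0.62, 95% interval -1.80 to 0.57, adjusted p = 0.373, limma). Without gland M11640 the value was -0.04.

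**Figure D3:**
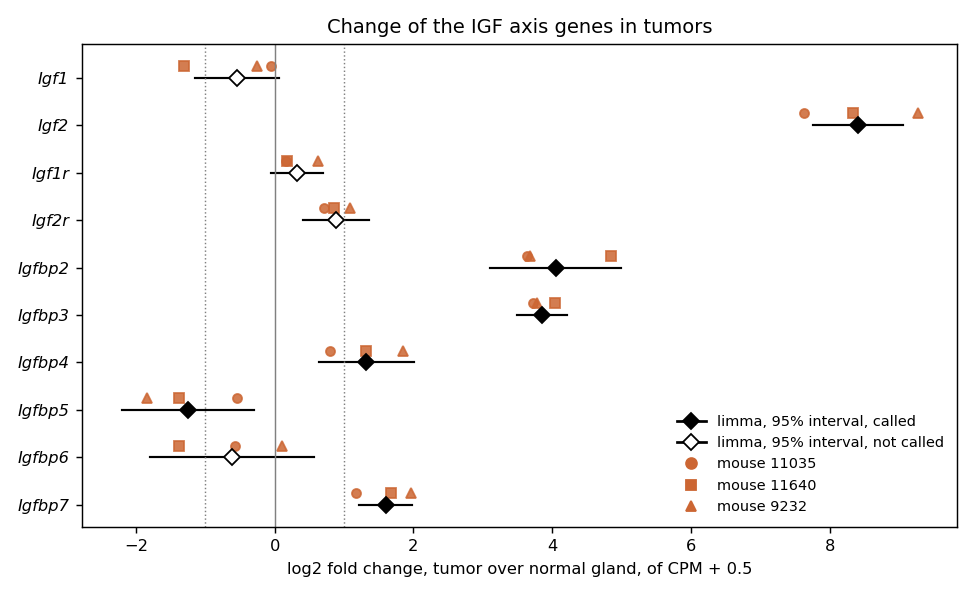
Log2 fold change of tumor over gland (horizontal axis) for each IGF axis gene, with limma's 95% interval (line and diamond, filled where called) and the ratio in each mouse (orange markers), and dotted lines at a 2-fold change. *Igf2* stands at 8.41 and the other called genes lie between -1.25 and 4.05.

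Levels can be compared between genes only per length, so CPM was divided by the exon length of each gene in the mm9 annotation. Fragments were counted on RefSeq genes, whose exon lengths can differ from these, so the order is approximate. By the median CPM per kb over the glands, the order was *Igfbp5* (263), *Igfbp7* (79.1), *Igfbp4* (45.7), *Igf1* (37.5), *Igf1r* (19.6), *Igf2r* (14.6), *Igfbp3* (5.46), *Igfbp6* (1.72), *Igf2* (1.29) and *Igfbp2* (0.881). Neighbours whose ranges over the 3 glands overlapped were *Igfbp4* with *Igf1*, *Igfbp3* with *Igfbp6*, *Igfbp6* with *Igf2*, and *Igf2* with *Igfbp2*. By the same median over the tumors, the order was *Igf2* (445), *Igfbp7* (253), *Igfbp4* (149), *Igfbp3* (76.6), *Igfbp5* (73.8), *Igf2r* (27.1), *Igf1* (24.9), *Igf1r* (23.8), *Igfbp2* (17.8) and *Igfbp6* (1.89). In the tumors *Igf2* lay above *Igfbp7* in every library (317 to 745 against 195 to 281 CPM per kb). *Igfbp4*, *Igfbp3* and *Igfbp5* were not separated beyond their spread there, nor were *Igf2r* from *Igf1*, *Igf1* from *Igf1r* and *Igf1r* from *Igfbp2*. *Igf2* thus moved from the ninth place to the first, and *Igfbp5* from the first to the fifth.

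The genes that share the locus or the RNA of *Igf2* were examined next. Of 8 listed genes, 5 were called higher and the other 3 were not called, where 14.5% of all genes were called higher. The median log2 fold change of the listed genes was 2.92. The median was 4.01 when *Lin28b*, which averaged less than 1 CPM, was left out. *H19*, an imprinted noncoding RNA expressed from the maternal allele, lies 72.6 kb from *Igf2* on chromosome 7. It had 41.5, 13.5 and 4.24 CPM in the glands and 3794, 3554 and 8086 CPM in the tumors. Its log2 fold change was 8.41 (95% interval 6.85 to 9.96, adjusted p = 3.57e-05, limma). The glands differed widely, and the value was 9.19 without M11035 and 7.62 without M9232. Tumor T9232 was the highest for *H19* as it was for *Igf2*, but also for every other member except *Igfbp5* and *Igfbp6*. Tumor T11640 was above T11035 for *Igf2* and below it for *H19*. *Igf2bp1*, an oncofetal protein that binds *Igf2* mRNA, was at or under the floor in each gland (0.610, 0 and 0.137 CPM) and had 62.5, 89.4 and 105 CPM in the tumors. It was at least 170-fold higher there against the floor. *Igf2bp2* rose from 2.20 ± 0.731 to 69.6 ± 5.15 CPM (SD, n = 3), with a difference of 4.73 on the log2 scale (adjusted p = 3.83e-06, limma). *Igf2* and *Igf2r* are both imprinted, and their values with *H19* are given here side by side only.

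Carriers and proteases that set how much ligand is free were measured for 6 of 8 listed genes, of which 2 were called higher and 2 lower. Over all genes, 14.5% were called higher and 13.7% lower. The median log2 fold change of the 6 genes was 0.15 and changed sign without gland M11035 (-0.12). *Pappa* encodes PAPP-A, the protease that cleaves IGFBP4, and rose from 6.51, 8.42 and 9.03 CPM in the glands to 102, 67.0 and 57.1 CPM in the tumors. All tumors were above all glands (log2 fold change 3.13, 95% interval 2.57 to 3.69, adjusted p = 3.09e-05, limma). The stanniocalcins, which inhibit PAPP-A, moved apart. *Stc1* rose to 25.9 ± 2.49 CPM from 10.02 ± 3.26 in the glands (SD, n = 3, 1.37 on the log2 scale, adjusted p = 0.00281 in limma), and *Stc2* fell to 11.7 ± 6.52 CPM from 41.2 ± 17.5 (-1.84 on the log2 scale, adjusted p = 0.00812 in limma). *Igfals*, the acid-labile subunit of the circulating IGF complex, had 2.85, 3.96 and 5.88 CPM in the glands and was at or under the floor in each tumor, at least 9.06-fold lower.

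In the relay from the insulin and IGF receptors, 3 of 33 genes measured were called higher and 4 lower (median log2 fold change -0.03), where 14.5% and 13.7% of all genes were. *Insr*, the insulin receptor, which can also bind IGF2, had 281, 323 and 308 CPM in the glands and 177, 174 and 191 CPM in the tumors. It passed the FDR but not the fold threshold (log2 fold change -0.75, adjusted p = 0.00189, limma). *Irs1*, the adaptor of both receptors, fell to 60.4 ± 11.8 CPM from 141 ± 60.1 in the glands (SD, n = 3, -1.14 on the log2 scale, adjusted p = 0.0180 in limma). Its call was lost without M11640, T11640 or T9232 (log2 fold change -0.83, -1.17 and -0.98). *Irs2* was not called (log2 fold change -0.31, 95% interval -1.02 to 0.40, adjusted p = 0.452, limma). *Irs3*, an adaptor of adipocytes, was at or under the floor in each tumor and at least 5.35-fold lower. *Pik3r1*, the main regulatory subunit of PI3-kinase, fell to 191 ± 41.8 CPM from 765 ± 59.0 (-2.02 on the log2 scale, adjusted p = 5.20e-05 in limma). *Foxo1*, a transcription factor that AKT holds out of the nucleus, fell to 56.4 ± 4.91 CPM from 179 ± 29.7 (-1.65 on the log2 scale, adjusted p = 9.88e-05 in limma). The genes called higher were *Pik3r3*, another regulatory subunit (log2 fold change 1.27), the phosphatase *Ptprf* (1.88) and the adaptor *Grb14* (1.044), with adjusted p of 2.74e-04, 1.44e-04 and 0.0233 (limma). *Grb14* fell short of a call without M9232, T11035 or T11640 (log2 fold change 0.81, 0.90 and 0.99), and with 1 CPM added in place of 0.5 (0.97).

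Growth hormone signaling genes, which control *Igf1* transcription in liver and fat, included *Ghr* and both *Stat5* genes among those that fell. Of 7 listed genes, 3 were called lower and 1 higher, where 13.7% and 14.5% of all genes were. The median log2 fold change of the listed genes was -0.91. *Ghr*, the growth hormone receptor, fell from 530, 812 and 366 CPM in the glands to 96.8, 98.9 and 83.9 CPM in the tumors. Each gland was above each tumor (log2 fold change -2.53, 95% interval -3.13 to -1.94, adjusted p = 1.25e-04, limma). *Stat5a* and *Stat5b*, transcription factors downstream of the receptor, both fell, with differences of -1.88 and -1.27 on the log2 scale (adjusted p = 2.94e-04 and 0.00127 in limma). *Socs3*, a feedback inhibitor of cytokine receptors, rose to 15.1 ± 2.88 CPM from 2.38 ± 0.520 (2.44 on the log2 scale, adjusted p = 1.42e-04 in limma). The fall of *Ghr*, *Irs1*, *Irs3*, *Pik3r1*, *Foxo1*, *Stat5a* and *Stat5b* went with that of all 12 adipocyte markers and all 8 lymphocyte markers. In the glands, *Ghr*, *Irs1* and *Irs3* had the order of the adipocyte sums (5521, 7091 and 3671 CPM). *Foxo1* and, by a small margin, *Stat5b* had that of the lymphocyte sums (689, 276 and 544 CPM), and *Pik3r1* and *Stat5a* had neither order. The part of fat or lymphocyte content in these falls was not tested.

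**Figure D4:**
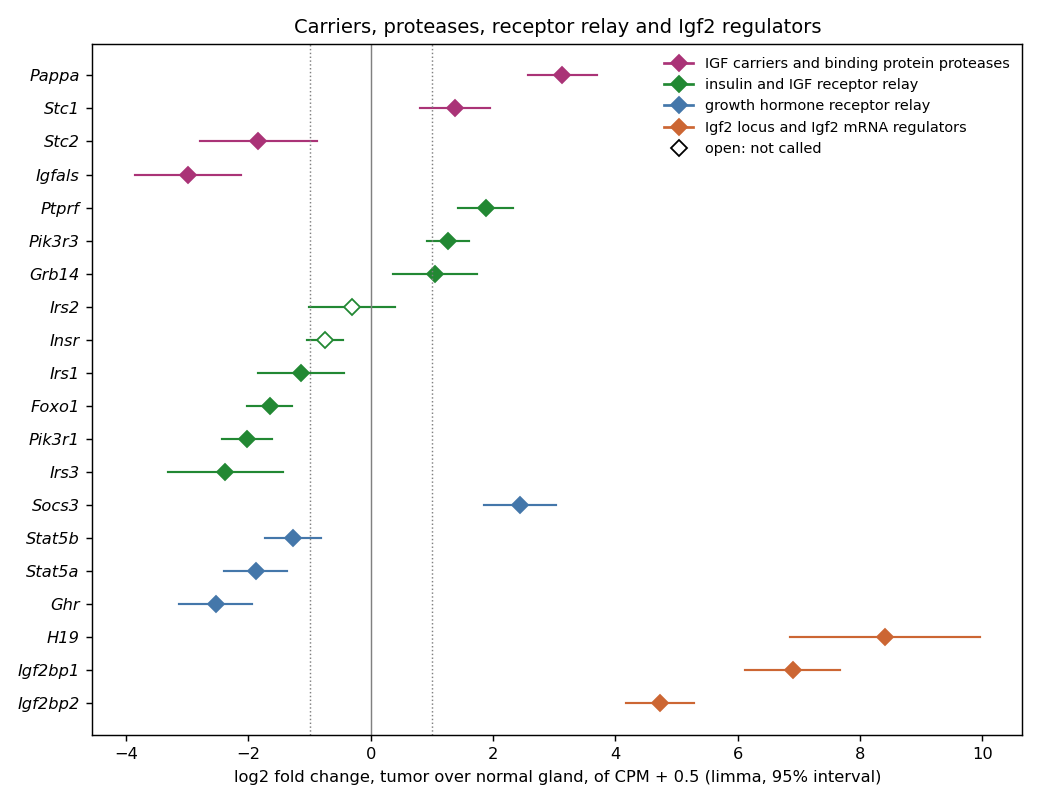
Log2 fold change of tumor over gland (horizontal axis) with limma's 95% interval for named carriers, proteases, relay genes and *Igf2* regulators, colored by list, with open symbols for genes not called and dotted lines at a 2-fold change. *H19* at 8.41 stands farthest to the right. *Igfals*, *Irs3* and *Igf2bp1* were at or under the floor in 1 tissue, so their plotted values depend on the added 0.5 CPM.

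For each ligand and receptor, the genes with the most similar pattern of log2 CPM over the 6 libraries were sought among the 14702 genes that averaged 1 CPM or more. The closest to *Igf2* were *Trim71*, an RNA-binding regulator of early development (Pearson r = 0.9998), and *Defb14* (r = 0.9995). The closest to *Igf1* were *Emx2* (r = 0.985) and *Daglb* (r = 0.976), to *Igf1r* *Rab5c* (r = 0.997) and *Extl3* (r = 0.996), and to *Igf2r* *Rpl29* (r = 0.996) and *Pcdh1* (r = 0.994). These describe likeness in 6 libraries that fall into 2 tissues, and nothing more was read from them.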

How the data were processed

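Data were the RNA-Seq libraries of 3 mammary tumors and the 3 adjacent glands of the same mice, grouped by the tissue type in the labels (n = 3 per tissue). According to the methods and processing notes, the authors mapped read pairs to mm9 with TopHat2 2.0.3, counted fragments per RefSeq gene with HTSeq 0.5.3p9 and dropped genes under 10 fragments in all. The deposited signal is CPM computed from effective library sizes in edgeR 3.6.1 (the design had assumed CPM, which takes the same log-scale test), so columns sum to 952151 to 1041166. In each library 100% of values were whole multiples of 1 step (within 0.1), which gave fragments back (4750989 to 7806908 per library). No column was left out, and no pair of libraries of the same tissue were copies (lowest chi-square per degree of freedom 13.0). Glands were not compared with tumors in this way.

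Genes were tested with limma 3.58.1 (R 4.3.3; mean-variance trend, two-sided) on log2(CPM + 0.5), with Benjamini-Hochberg adjustment over all 15280 genes. Fold changes are therefore on that scale. With 3 libraries in each tissue the smallest p of an exact permutation test is 0.1, so calls rest on variance shared across genes. Recovered fragments were tested with edgeR 4.0.16 and DESeq2 1.42.0 as alternatives. Scripts were tested on simulated data. Same-numbered libraries come from 1 mouse and are thus paired. Their deviations from the tissue means correlated with r = 0.107, 0.151 and 0.0168 for the pairs with T11035, T11640 and T9232 over 14712 genes. The study's methods state no block, so the reported fit has none.

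Members, lists and tests were chosen with earlier results of these data known. Named were the 10 members, the 3 called genes with the largest rise and fall of each list (mean of at least 1 CPM), *Insr*, *Irs1*, *Irs2*, *Ghr*, *H19* and *Pappa*, and the 2 closest genes by pattern; other genes are marked as chosen after their values were seen or are given as markers or overlapping genes. *Igfbp1*, *Igfbpl1*, *Insrr* and *Irs4* were not in the table, nor were the markers *Tcf21* and *Adgre1* (listed there as *Emr1*). Positions and exon lengths are from GENCODE vM1 (NCBIM37, the same build as mm9). No transcript of another gene was 95% identical to a member over 200 bp (BLAST 2.17.0).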

Additional observations from a re-analysis of the deposited data

How the results depend on the processing

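Over 15 alternatives (pseudocount 0.1 or 1, only genes averaging 1 CPM or more, plain library size, no trend, edgeR, DESeq2, replicate block, and each library left out), no named gene changed direction. Of 450 pairs of a gene and an alternative, 436 kept their call. The number of members called higher was 5 or 6 throughout. With the replicate block, 5 members were called higher and 1 lower by limma and by edgeR, and the block changed no call of a named gene. The 1 member called lower, *Igfbp5*, is the least certain result. The count was 0 in limma without the trend (1 member at an unadjusted p under 0.05, and 1 called by edgeR and by DESeq2), and 0 to 1 when a library was left out (0 to 2 at an unadjusted p under 0.05). Fewer libraries were tested there, and no other cause was tested. Depth limits *Igfbp6* and the gland values of *Igfbp2* and *Igf2*.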

Other observations

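Among the other listed genes, chosen for mention after their values were seen, *Hmga2*, a chromatin protein known to raise *Igf2bp2* expression, had 3.66, 2.31 and 1.37 CPM in the glands and 49.5, 42.3 and 41.8 CPM in the tumors (log2 fold change 4.01, adjusted p = 2.26e-05, limma). *Plagl1*, an imprinted zinc finger factor known to act on the *Igf2* and *H19* locus, had 10.4, 29.7 and 11.9 CPM in the glands and 59.2, 60.5 and 50.2 CPM in the tumors (log2 fold change 1.83, adjusted p = 0.00366, limma). *Igf2bp3*, the third of the *Igf2* mRNA-binding genes, was higher in every tumor than in every gland but was not called (log2 fold change 0.57, 95% interval 0.07 to 1.07, adjusted p = 0.0672, limma). *Airn*, the noncoding RNA that silences the paternal *Igf2r* allele, was not called (log2 fold change 0.32, adjusted p = 0.193, limma), with 31.3 to 43.8 CPM in glands and 40.0 to 47.6 CPM in tumors. The mouse *Atf3* row had 4.47, 8.09 and 22.6 CPM in the glands and 13.4, 18.3 and 19.3 CPM in the tumors and was not called (log2 fold change 0.80, 95% interval -0.32 to 1.91, adjusted p = 0.223, limma). Both tissues carry the transgene, so this row checks no label.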
